A study of Mus musculus with 9 samples.

Results

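The cultures described here received Q-VD-OPH (OPH), a pan-caspase inhibitor, or its vehicle, dimethyl sulfoxide (DMSO). They were the 3 OPH and 3 DMSO libraries of the study, 6 of its 9, chosen by their labels, and they were compared across all genes. The cells came from mouse forelimbs at embryonic day 12, were freed with dispase and were spotted as high-density drops, which is called micromass culture. OPH was given at 100 µM for 6 days beginning on the day after plating, and the vehicle cultures ran in parallel. The labels call the cultures biological replicates but name neither the mouse strain nor the animals behind a culture, so p-values measure the spread between these libraries. RNA was counted from the 3′ ends of polyadenylated transcripts, with 6053665 to 6867350 gene counts per library.

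Caspases are proteases that cut after aspartate. Initiator caspases such as caspase 8 and caspase 9 switch on executioner caspases such as caspase 7, and the inflammatory caspases act in pyroptosis. OPH is a quinoline-capped valine-aspartate peptide with a difluorophenoxymethylketone group, and it blocks the active site of many caspases irreversibly. In micromass culture, limb mesenchyme condenses and forms cartilage nodules, while other cells of the limb bud stay in the drop. Programmed cell death shapes the limb, and caspases are also known to act in cell differentiation.

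The labels name the cells chondroblasts. Defining cartilage genes were present with the vehicle: Col2a1, the main cartilage collagen, was at 1508, 1014 and 1586 CPM (counts scaled to a library total of 1000000), Acan, the core protein of aggrecan, at 85.3, 59.1 and 98.98 CPM, and Sox9, the main cartilage transcription factor, at 478, 419.9 and 550.4 CPM. Transcripts of macrophages (Csf1r, the receptor for macrophage colony-stimulating factor, at 180.0, 219.5 and 125 CPM), fat cells (Adipoq, the hormone adiponectin, at 216, 189 and 21.3 CPM) and muscle (Acta1, skeletal actin, at 52.9, 65.9 and 171 CPM) were present as well. The drops were thus mixed limb cultures. Throughout, values stand in the order of cultures 1, 2 and 3 of a group.

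Of 12916 genes tested, 1138 rose and 1114 fell with OPH at an adjusted p below 0.05. These are 17.4% of genes tested, 8.81% rising and 8.62% falling. In 4409 of the genes tested (34.1%) the libraries of the groups did not overlap, and this held for 2239 of the 2252 called. Such separation, given below for single genes, therefore adds little to a call. A change of at least 2-fold was seen in 338 genes that rose and 332 that fell, and one of at least 10-fold in 93 that rose and 37 that fell. The first principal component separated the groups and held 58.6% of the variance, and the second set both libraries numbered 3 apart and held 16.9%. Without OPH culture 2 the test called 728 genes up and 724 down, and without DMSO culture 1 it called 801 up and 751 down. A fit with the culture number as replicate block called 1558 up and 1559 down. Counts and p-values below are from the fit without this block unless stated. With cultures 1 and 2 alone it was 943 up and 960 down, and of the groups described next 53 interferon-response genes rose, 23 macrophage markers fell and 11 cartilage matrix genes fell.

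**Figure D1:**
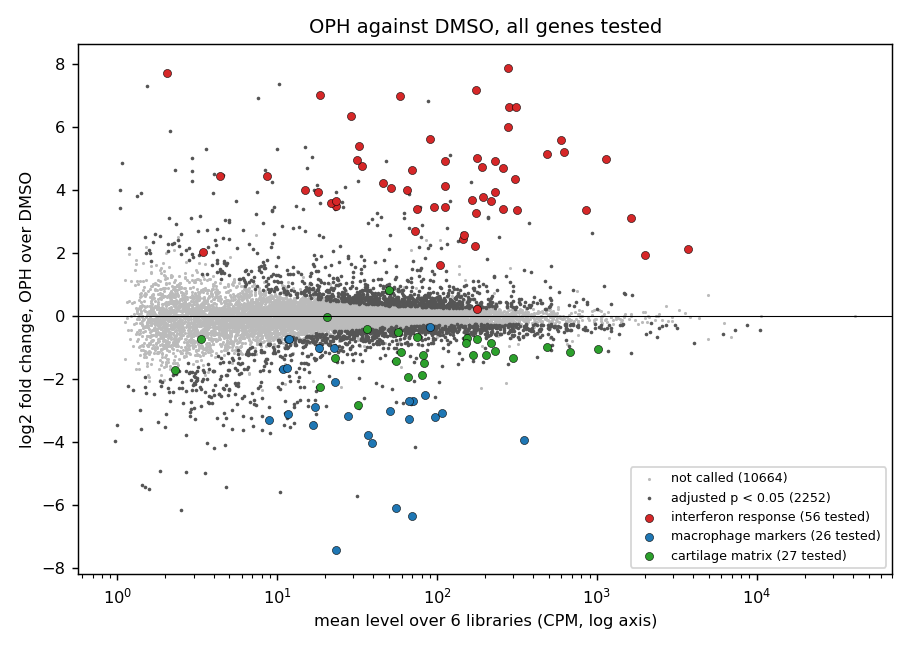
Each point is 1 of 12916 genes, with its mean level over the 6 libraries in CPM on a log axis and its log2 fold change of OPH over DMSO. Interferon response genes lie above 0, 55 of 56 of them called, and macrophage markers lie below 0, 22 of 26 of them called.

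Interferon-response genes formed the group with the highest median fold change of the 41 lists examined. Of 56 interferon-response genes, all tested, 55 rose and none fell (98.2% called against 17.4% of all genes). Their median log2 fold change was 4.10 against -0.0025 for all genes. Their summed level was 3188 to 4092 CPM with DMSO and 28168 to 33163 CPM with OPH. This list, like the others, was written with earlier results of these data known. Its count and rank therefore describe its members and are not a test. Type I interferons are secreted antiviral proteins that act through a cell-surface receptor and a complex of factors that includes STAT2 and IRF9 and binds a DNA motif called the interferon-stimulated response element (ISRE).

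The ligand gene Ifnb1 (interferon beta; chromosome 4, 88522025 to 88522774, minus strand of GRCm38) had no count in any DMSO library, whereas OPH gave 3.65, 3.06 and 5.51 CPM. Set against a floor of 3 counts over the DMSO group, its level was at least 25.9-fold higher with OPH (adjusted p = 3.5e-04). It passed the filter on low counts only through the OPH libraries. Irf7, the factor that amplifies interferon production, was at 18.8, 25.1 and 13.7 CPM with DMSO and 486, 548 and 463 CPM with OPH (log2 fold change 4.70 ± 0.21, adjusted p = 5.9e-06, where ± is the standard error and p is from edgeR's quasi-likelihood test with Benjamini-Hochberg adjustment over all genes tested). In both genes every OPH library lay above every DMSO library. Sensors of double-stranded RNA rose too. Tlr3, the endosomal receptor, was at 3.35, 5.12 and 4.32 CPM with DMSO and 51.6, 45.7 and 44.9 CPM with OPH (log2 fold change 3.47 ± 0.19, adjusted p = 1.1e-08). Ifih1, which encodes the cytosolic sensor MDA5, was at 7.81, 3.63 and 4.62 CPM with DMSO and 142, 136 and 125 CPM with OPH (log2 fold change 4.65 ± 0.20, adjusted p = 2.2e-08). Zbp1, a sensor of Z-form nucleic acid, was at 2.87, 3.63 and 0.745 CPM with DMSO and 67.4, 76.04 and 52.8 CPM with OPH (log2 fold change 4.77 ± 0.35, adjusted p = 6.9e-05).

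Effector genes rose as well. Isg15, a ubiquitin-like protein, was at 92.6, 68.7 and 45.02 CPM with DMSO and 2192, 2309 and 2127 CPM with OPH (log2 fold change 5.01 ± 0.31, adjusted p = 8.7e-04). Ifit1, which binds viral RNA, was at 45.9, 30.4 and 21.3 CPM with DMSO and 1248, 1209 and 1190.5 CPM with OPH (log2 fold change 5.23 ± 0.31, adjusted p = 6.4e-04). Ifit3, a partner of Ifit1, was at 4.94, 8.09 and 5.52 CPM with DMSO and 497, 713 and 643 CPM with OPH (log2 fold change 6.64 ± 0.22, adjusted p = 5.3e-07). The 3 genes did not overlap between groups. Mx1, a dynamin-like antiviral GTPase, was at 0.638, 1.82 and 0.298 CPM with DMSO and 129, 119 and 102 CPM with OPH (adjusted p = 1.1e-07). Because Ifit3 and Ifit3b, and members of the Gbp, Oas, Mx and H2 families, are near-identical and the counting program is not given in the sources used here, the split of reads among such copies is uncertain.

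The smallest p-values of all genes that rose belonged to interferon-induced GTPases and surface proteins. Ifi47, an immunity-related GTPase (chromosome 11, 49076587 to 49096974, plus strand of GRCm38), was at 6.54, 8.26 and 5.22 CPM with DMSO and 242, 234 and 226 CPM with OPH (log2 fold change 5.13 ± 0.14, adjusted p = 2.4e-11). Gbp3, a guanylate-binding protein, was at 8.77, 6.61 and 6.11 CPM with DMSO and 241, 209 and 201 CPM with OPH (log2 fold change 4.92 ± 0.14, adjusted p = 3.2e-11). Irgm1, which regulates the immunity-related GTPases, was at 20.1, 18.8 and 17.3 CPM with DMSO and 222, 208 and 190.4 CPM with OPH (log2 fold change 3.46 ± 0.11, adjusted p = 7.0e-11). Spread within each group was small in these 3 genes beside the distance between groups. Gbp2 was at 8.61, 7.76 and 6.26 CPM with DMSO and 126, 129 and 113 CPM with OPH (log2 fold change 4.03 ± 0.14, adjusted p = 1.6e-10). Ly6e, a lipid-anchored surface protein, was at 292, 246 and 234 CPM with DMSO and 1525, 1628 and 1669 CPM with OPH (log2 fold change 2.64 ± 0.09, adjusted p = 1.6e-10). Ly6a, the surface antigen Sca-1, was at 49.4, 37.8 and 40.2 CPM with DMSO and 364, 400.5 and 354 CPM with OPH (log2 fold change 3.13 ± 0.11, adjusted p = 1.6e-10).

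Genes of class I antigen presentation rose too. Tap1, which carries peptides into the endoplasmic reticulum, was at 28.5, 26.1 and 23.3 CPM with DMSO and 401, 379 and 298 CPM with OPH (log2 fold change 3.79 ± 0.13, adjusted p = 4.4e-10). B2m, the light chain of class I molecules, was at 1549.7, 1402 and 1207 CPM with DMSO and 6112, 6484 and 5566 CPM with OPH (log2 fold change 2.13 ± 0.09, adjusted p = 8.5e-09). Both genes separated the groups completely, and B2m was abundant already with the vehicle.

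Chemokines that draw lymphocytes were among the genes with the largest rises. Cxcl10, a ligand of CXCR3 (chromosome 5, 92346638 to 92348889, minus strand of GRCm38), was at 3.98, 0.991 and 1.94 CPM with DMSO and 601, 562 and 487 CPM with OPH (log2 fold change 7.88 ± 0.32, adjusted p = 2.7e-05). Ccl5, a chemokine for T cells and monocytes, was at 3.35, 2.48 and 1.34 CPM with DMSO and 350.1, 379.9 and 313 CPM with OPH (log2 fold change 7.19 ± 0.19, adjusted p = 5.4e-10). Cxcl9, another ligand of CXCR3, was at 0.797, 0 and 0 CPM with DMSO and 40.6, 41.9 and 27.4 CPM with OPH (log2 fold change 7.02 ± 0.55, adjusted p = 2.9e-05). All 3 were low with the vehicle and higher in every OPH library. Cxcl9 passed the filter on low counts only through the OPH libraries.

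The promoters of several of these genes held the ISRE letters (GAAA, 2 bases of any kind, GAAA) within 250 bases before the gene start, and they are shown because this motif is the one that interferon signalling is known to use. The stretches are from RefSeq on GRCm38.p6, written along the gene's strand, with the motif, or its complement on the other strand, in capitals. They lie at chr3:142559979-142560028 (plus strand) for Gbp3, chr11:48871421-48871470 (minus strand) for Irgm1, chr3:142620584-142620633 (plus strand) for Gbp2, chr2:122147528-122147577 (plus strand) for B2m and chr19:34583353-34583402 (plus strand) for Ifit3.
Gbp3: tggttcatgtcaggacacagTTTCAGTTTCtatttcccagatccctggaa
Irgm1: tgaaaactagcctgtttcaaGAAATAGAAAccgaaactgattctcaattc
Gbp2: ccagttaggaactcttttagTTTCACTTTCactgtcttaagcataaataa
B2m: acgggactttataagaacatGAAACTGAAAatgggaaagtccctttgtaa
Ifit3: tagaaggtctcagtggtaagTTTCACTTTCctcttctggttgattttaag

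Promoter windows from 250 bases before to 50 after the gene start were found for 9750 of the tested genes. The ISRE letters, on either strand, stood in 3.74% of them, in 9.90% of promoters of genes that rose, in 3.03% for genes that fell and in 40.3% for genes that rose at least 10-fold. Among interferon-response genes with a promoter, 22 of 41 held it. Other motifs were searched separately, so matches could overlap, and the AP-1 letters TGANTCA stood in 11 of these 41 against 5.91% of all promoters. A match describes letters only and is neither a binding site nor a cause.

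**Figure D2:**
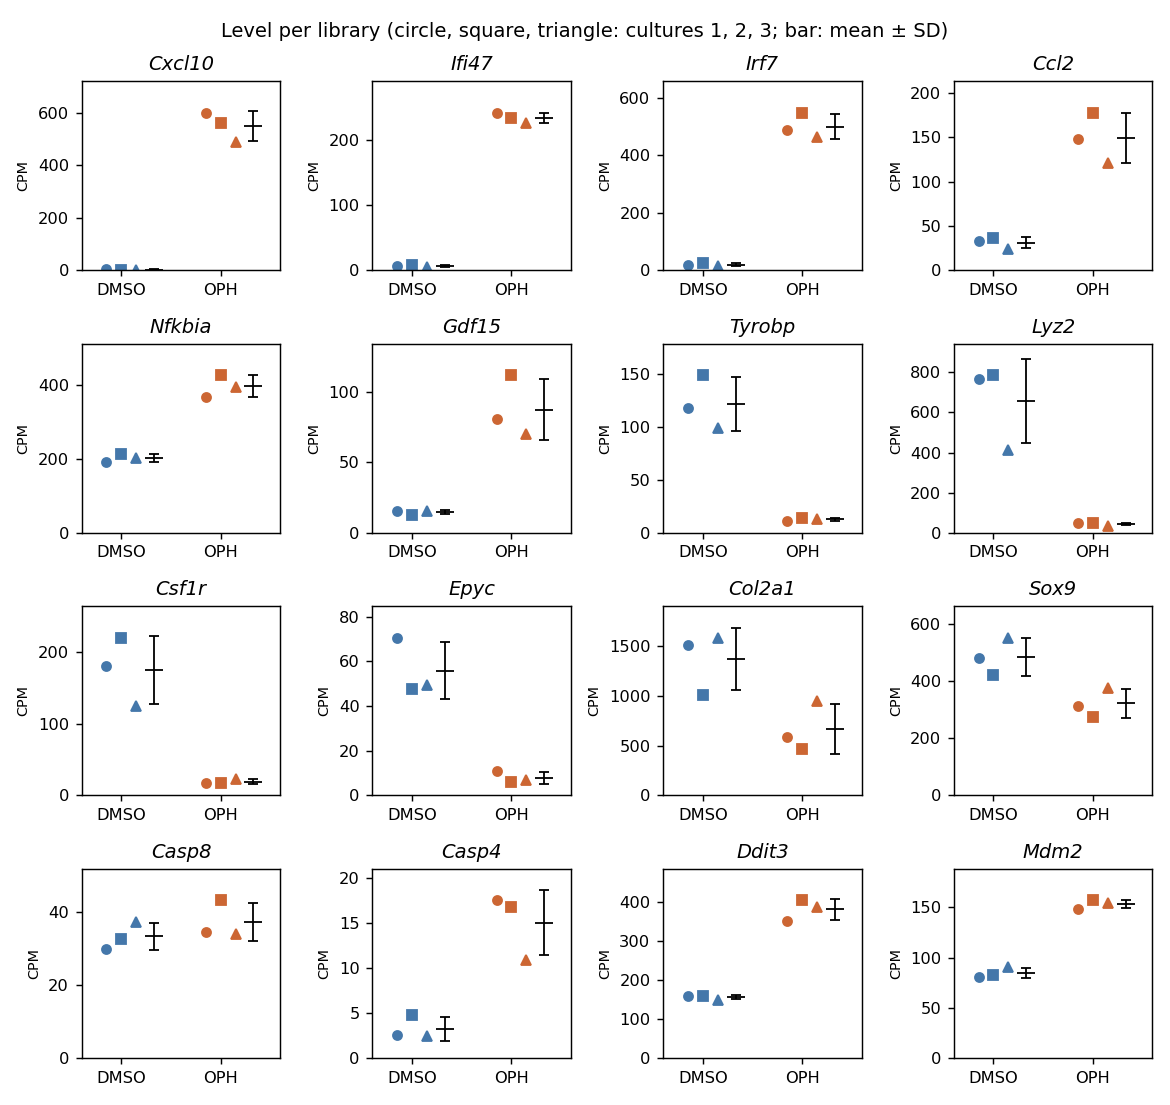
Each panel plots the level of 1 gene in CPM on a linear axis from 0 in the 3 DMSO and 3 OPH libraries, with circle, square and triangle for cultures 1, 2 and 3 and the mean ± SD at the right. Cxcl10, Ifi47 and Irf7 were higher in all OPH libraries, Tyrobp, Lyz2 and Csf1r were lower in all of them, and Casp8 overlapped.

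Most tested genes of a list of NF-kB targets and chemokines rose as well, with smaller fold changes. NF-kB is a transcription factor of inflammatory signalling, and its part in these rises was not tested. Of 23 tested of 27 NF-kB targets and chemokines, 15 rose and none fell (65.2% called against 17.4% of all genes), with a median log2 fold change of 0.82. Nfkbia, the feedback inhibitor of NF-kB, was at 192, 213 and 201 CPM with DMSO and 367, 425 and 395 CPM with OPH (log2 fold change 0.97 ± 0.08, adjusted p = 2.0e-06). Ccl7, a monocyte chemokine, was at 19.8, 21.1 and 14.5 CPM with DMSO and 86.2, 90.05 and 66.9 CPM with OPH (log2 fold change 2.14 ± 0.16, adjusted p = 8.2e-07). Tlr2, a receptor for bacterial lipoproteins, was at 8.13, 11.9 and 10.4 CPM with DMSO and 29.2, 29.9 and 30.3 CPM with OPH (log2 fold change 1.55 ± 0.18, adjusted p = 4.0e-05). Each of these genes was higher in every OPH library than in any DMSO library. Mt1, a metal-binding metallothionein, was at 340.3, 331 and 380.0 CPM with DMSO and 589.8, 793 and 622 CPM with OPH (log2 fold change 0.93 ± 0.11, adjusted p = 9.9e-05). Tnfaip3, the A20 protein that ends NF-kB signals, was at 1.43, 3.47 and 1.19 CPM with DMSO and 6.72, 11.4 and 9.56 CPM with OPH (log2 fold change 2.18 ± 0.42, adjusted p = 0.00273).

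The NF-kB letters (GGG, 2 bases of any kind, TTTCC), on either strand, stood in 2.01% of all promoters and in 4 of 18 of this list, while the AP-1 letters stood in 5 of the 18. Those of the 2 feedback inhibitors are shown, at chr12:55492648-55492696 (minus strand) for Nfkbia and chr10:19015411-19015442 (minus strand) for Tnfaip3, with the match, which lies on the other strand, in capitals.
Nfkbia: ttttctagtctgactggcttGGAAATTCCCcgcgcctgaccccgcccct
Tnfaip3: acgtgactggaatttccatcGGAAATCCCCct

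Mediators studied in osteoarthritis, a disease named in the title of the series, moved in part. Of 31 tested of 42, 7 rose and 1 fell (25.8% called against 17.4% of all genes). There were 2 falling without DMSO culture 2 or 3 and 3 with the block. Ccl2, the main monocyte chemokine, was at 32.4, 36.5 and 24.00 CPM with DMSO and 148, 178 and 121 CPM with OPH (log2 fold change 2.27 ± 0.18, adjusted p = 3.8e-05). Saa3, an acute-phase protein, was at 3.19, 1.16 and 1.19 CPM with DMSO and 14.03, 14.2 and 15.2 CPM with OPH (log2 fold change 2.96 ± 0.36, adjusted p = 6.3e-05). Cxcl1, a neutrophil chemokine, was at 1.75, 0.991 and 1.34 CPM with DMSO and 7.75, 9.49 and 5.99 CPM with OPH (log2 fold change 2.49 ± 0.41, adjusted p = 7.5e-04). These 3 genes were higher in all OPH libraries, and Saa3 and Cxcl1 were the lower ones with the vehicle. Icam1, an adhesion molecule for leukocytes, was at 21.04, 21.3 and 31.5 CPM with DMSO and 54.2, 58.2 and 52.8 CPM with OPH (log2 fold change 1.16 ± 0.16, adjusted p = 1.4e-04). Vcam1, another such molecule, was at 116, 101 and 118 CPM with DMSO and 169, 202 and 178 CPM with OPH (log2 fold change 0.71 ± 0.10, adjusted p = 1.6e-04). Both were higher in every OPH library. Ptgs2, the cyclooxygenase that makes prostaglandins, was at 14.7, 11.4 and 11.9 CPM with DMSO and 28.5, 16.1 and 26.1 CPM with OPH (log2 fold change 0.89 ± 0.22, adjusted p = 0.0136), and the call was lost without DMSO culture 2, OPH culture 1 or OPH culture 3 (adjusted p = 0.0609, 0.0798 and 0.0532) and with cultures 1 and 2 alone (0.0842). Mmp13, the collagenase of hypertrophic and diseased cartilage, was at 1.59, 2.81 and 0.447 CPM with DMSO and 5.41, 2.04 and 2.11 CPM with OPH (adjusted p = 0.326), and the groups overlapped. Adamts4 and Adamts5, the main aggrecanases, had adjusted p = 0.741 and 0.348.

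Macrophage markers fell, and this list had the lowest median of all lists examined. Of 26 tested of 28 markers, 22 fell and none rose (84.6% called against 17.4% of all genes), with a median log2 fold change of -3.03. Their summed level was 1631 to 3048 CPM with DMSO and 317 to 360.1 CPM with OPH. In bulk RNA fewer macrophages and less of these transcripts per macrophage cannot be told apart. Limb mesenchyme carries tissue macrophages, which take up dying cells.

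Tyrobp, the adaptor of myeloid receptors (chromosome 7, 30413760 to 30417585, plus strand of GRCm38), was at 117, 149 and 98.5 CPM with DMSO and 11.1, 14.2 and 12.6 CPM with OPH (log2 fold change -3.26 ± 0.16, adjusted p = 2.4e-08). Cd68, a lysosomal protein of macrophages, was at 98.5, 102 and 70.8 CPM with DMSO and 11.5, 11.7 and 10.4 CPM with OPH (log2 fold change -3.01 ± 0.16, adjusted p = 1.0e-08). Csf1r, on whose signal macrophages depend, was at 180.0, 219.5 and 125 CPM with DMSO and 17.5, 16.8 and 22.5 CPM with OPH (log2 fold change -3.21 ± 0.24, adjusted p = 2.1e-04). All OPH libraries lay far below all DMSO libraries in these genes. Adgre1, the F4/80 antigen, was at 83.8, 78.1 and 43.97 CPM with DMSO and 6.58, 4.38 and 4.05 CPM with OPH (log2 fold change -3.77 ± 0.31, adjusted p = 1.3e-04). Lyz2, lysozyme, was at 766, 786 and 414 CPM with DMSO and 47.2, 46.99 and 35.8 CPM with OPH (log2 fold change -3.92 ± 0.34, adjusted p = 0.00273). Spi1, the PU.1 factor that specifies myeloid cells, was at 39.4, 42.3 and 30.4 CPM with DMSO and 8.18, 9.63 and 8.42 CPM with OPH (log2 fold change -2.09 ± 0.18, adjusted p = 2.0e-06). DMSO culture 3 was the lowest vehicle culture for Csf1r and Lyz2, while the OPH cultures lay close together.

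Some markers of tissue-resident and clearing macrophages came close to 0 with OPH. Pf4, a chemokine made by resident macrophages and platelets, was at 133, 134 and 61.9 CPM with DMSO and 2.34, 2.04 and 0.324 CPM with OPH (log2 fold change -6.08 ± 0.62, adjusted p = 0.00464). Mrc1, the mannose receptor, was at 163, 186 and 61.9 CPM with DMSO and 1.32, 2.77 and 0.810 CPM with OPH (log2 fold change -6.35 ± 0.75, adjusted p = 0.00912), and its call was lost without OPH culture 1 (adjusted p = 0.0507). Trem2, a lipid-sensing receptor, was at 31.2, 35.02 and 26.2 CPM with DMSO and 2.05, 3.79 and 2.59 CPM with OPH (log2 fold change -3.44 ± 0.25, adjusted p = 3.1e-07). All 3 were lower in every OPH library. Msr1, a scavenger receptor, was at 90.5, 95.97 and 76.2 CPM with DMSO and 18.1, 18.97 and 15.4 CPM with OPH (log2 fold change -2.32 ± 0.13, adjusted p = 2.5e-08). Lcp1, an actin bundler of blood cells, was at 102, 102 and 83.9 CPM with DMSO and 16.4, 11.7 and 15.4 CPM with OPH (log2 fold change -2.73 ± 0.15, adjusted p = 1.1e-08). The falls of Msr1 and Lcp1 were smaller than those of Pf4 and Mrc1. Ptprc, the pan-leukocyte antigen CD45, was at 20.2, 20.5 and 11.8 CPM with DMSO and 6.58, 5.98 and 4.37 CPM with OPH (log2 fold change -1.62 ± 0.27, adjusted p = 0.00100). Tfec, a factor of the MITF family found in macrophages and osteoclasts, was at 7.01, 4.13 and 3.73 CPM with DMSO and 0.146, 0 and 0 CPM with OPH, and its group totals of 94 and 1 counts give a ratio of DMSO to OPH of 98.1 (95% counting interval 17.2 to 3916). Of these, Tfec came nearest to 0 with OPH, and it passed the filter on low counts only through the DMSO libraries.

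Of 8 tested of 12 osteoclast markers, 5 fell and none rose (62.5% called against 17.4% of all genes), and 3 fell without DMSO culture 3 or OPH culture 2. Atp6v0d2, a proton-pump subunit of osteoclasts and macrophages, was at 5.10, 3.96 and 11.6 CPM with DMSO and 0.292, 0.292 and 0 CPM with OPH (log2 fold change -4.98 ± 0.71, adjusted p = 2.6e-04). Tnfrsf11a, the receptor RANK, was at 15.5, 16.2 and 19.97 CPM with DMSO and 3.51, 4.38 and 2.59 CPM with OPH (log2 fold change -2.29 ± 0.27, adjusted p = 4.2e-05). Ctsk, the bone-resorbing cathepsin K, was at 88.6, 67.4 and 112 CPM with DMSO and 53.2, 49.3 and 44.7 CPM with OPH (log2 fold change -0.86 ± 0.16, adjusted p = 0.00464). Acp5, the tartrate-resistant phosphatase, was at 25.3, 9.58 and 45.5 CPM with DMSO and 10.8, 2.92 and 5.83 CPM with OPH (adjusted p = 0.174, 8.8e-05 with the replicate block). Only the first 3 of these genes had groups that did not overlap.

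Genes of dead-cell clearance did not move as 1 group. Of 24 tested of 26, 1 rose (2 with the block) and 8 fell (37.5% called against 17.4% of all genes). Without DMSO culture 1 or any 1 of the OPH cultures, 3 to 5 fell. Axl, a receptor of dead-cell clearance that is itself induced by interferon, was at 123, 128 and 131 CPM with DMSO and 241, 278 and 263 CPM with OPH (log2 fold change 1.03 ± 0.08, adjusted p = 1.3e-06). P2ry6, a nucleotide receptor of phagocytes, was at 18.2, 25.6 and 16.5 CPM with DMSO and 1.75, 3.65 and 1.78 CPM with OPH (log2 fold change -3.05 ± 0.32, adjusted p = 1.3e-05). C1qb, a chain of complement C1q, was at 117, 169.6 and 71.1 CPM with DMSO and 15.1, 19.3 and 17.7 CPM with OPH (log2 fold change -2.78 ± 0.38, adjusted p = 0.00934), with adjusted p = 0.0528 without OPH culture 3. The macrophage markers fell in the same libraries, and their part in the 8 falls was not tested.

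Lysosome genes split by direction. Of 44 tested, 16 fell and 6 rose (50.0% called against 17.4% of all genes), and 10 fell without OPH culture 1. Ctsc, cathepsin C, was at 111, 114 and 90.04 CPM with DMSO and 35.95, 43.2 and 35.6 CPM with OPH (log2 fold change -1.45 ± 0.12, adjusted p = 1.7e-06). Gusb, beta-glucuronidase, was at 86.9, 82.1 and 81.1 CPM with DMSO and 40.04, 32.5 and 38.9 CPM with OPH (log2 fold change -1.17 ± 0.11, adjusted p = 6.9e-06). Ctsd, cathepsin D, was at 795, 879.6 and 705 CPM with DMSO and 573, 612 and 569 CPM with OPH (log2 fold change -0.44 ± 0.09, adjusted p = 0.00270). Against these falls, Sqstm1, the autophagy receptor p62, was at 291, 290.4 and 311 CPM with DMSO and 629, 696 and 633 CPM with OPH (log2 fold change 1.13 ± 0.08, adjusted p = 1.7e-07). Lamp1, an abundant lysosomal membrane protein, was at 739.8, 787 and 749.7 CPM with DMSO and 706, 751 and 704 CPM with OPH (adjusted p = 0.531). The macrophage markers moved with these falls, and their part was not tested.

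**Figure D3:**
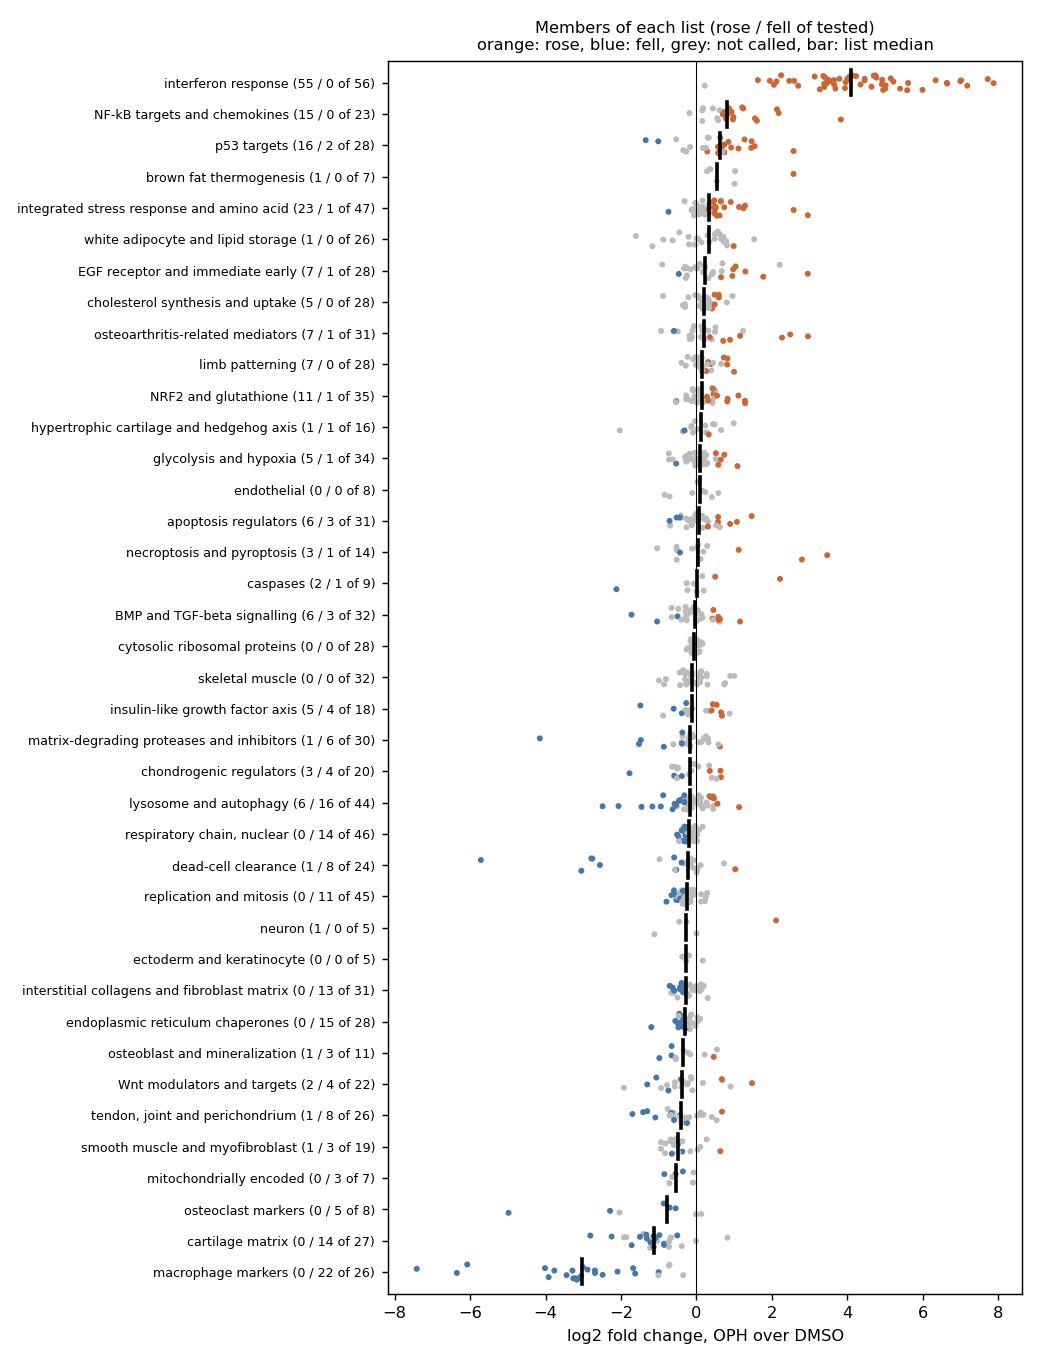
Each row is 1 list with at least 5 tested genes, and each point is 1 gene's log2 fold change of OPH over DMSO, orange where it rose, blue where it fell and grey where it was not called. Bars mark the list medians, which run from -3.03 for macrophage markers to 4.10 for interferon response genes.

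Cartilage matrix genes fell. Of 27 tested of 28, 14 fell and none rose (51.9% called against 17.4% of all genes), with a median log2 fold change of -1.13. Their summed level was 4941 to 6780.3 CPM with DMSO and 2345 to 3636 CPM with OPH. Without DMSO culture 1, DMSO culture 3 or OPH culture 1 the count of falling genes was 8, 9 and 9, and with the replicate block it was 24, with 1 rising.

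Epyc, a small leucine-rich proteoglycan of cartilage (chromosome 10, 97644068 to 97682454, plus strand of GRCm38), was at 70.6, 47.6 and 49.3 CPM with DMSO and 10.96, 6.13 and 6.64 CPM with OPH (log2 fold change -2.81 ± 0.24, adjusted p = 1.2e-05). Matn4, a matrilin that links matrix fibrils, was at 494, 407 and 368 CPM with DMSO and 155, 151 and 205 CPM with OPH (log2 fold change -1.31 ± 0.14, adjusted p = 3.4e-04). Cilp2, a matrix protein of cartilage, was at 324, 278 and 243 CPM with DMSO and 140.3, 163 and 164 CPM with OPH (log2 fold change -0.85 ± 0.11, adjusted p = 1.1e-04). The groups did not overlap in these genes, and their calls held in every alternative run. Hapln1, which fixes aggrecan to hyaluronan, was at 141, 89.7 and 138 CPM with DMSO and 47.3, 32.1 and 51.4 CPM with OPH (log2 fold change -1.49 ± 0.24, adjusted p = 0.00848, adjusted p = 0.0662 with cultures 1 and 2 alone). Acan was at 85.3, 59.1 and 98.98 CPM with DMSO and 33.5, 28.2 and 49.4 CPM with OPH (log2 fold change -1.14 ± 0.27, adjusted p = 0.0354), and its call was lost without DMSO culture 1 (adjusted p = 0.113), DMSO culture 3 (0.0695), OPH culture 1 (0.125) or OPH culture 2 (0.0752). Comp, an oligomeric matrix protein, was at 248, 160.2 and 176 CPM with DMSO and 116, 102 and 104 CPM with OPH (log2 fold change -0.86 ± 0.15, adjusted p = 0.00518), and with cultures 1 and 2 alone its adjusted p was 0.0949.

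Col2a1 was at 1508, 1014 and 1586 CPM with DMSO and 583, 467 and 946 CPM with OPH. All OPH libraries were lower than all DMSO libraries, but the difference did not pass the main test, which has no replicate block (log2 fold change -1.04 ± 0.36, adjusted p = 0.144). It passed with DESeq2 (adjusted p = 0.0316), limma-voom (0.0100), the replicate block (6.0e-07) and without OPH culture 3 (0.0311). In the authors' deposited table Col2a1 had adjusted p = 0.00652. Matn1, matrilin 1, was at 101, 34.5 and 105 CPM with DMSO and 27.04, 13.6 and 51.03 CPM with OPH (adjusted p = 0.289, 3.9e-07 with the block), with overlapping groups.

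Regulators of cartilage formation moved both ways. Of 20 tested of 24, 3 rose and 4 fell (35.0% called against 17.4% of all genes), and 7 fell with the replicate block. Without OPH culture 3 only 1 rose, and the falling genes numbered 2, 1 and 2 without DMSO culture 1, OPH culture 1 and OPH culture 2. Sox9 was at 478, 419.9 and 550.4 CPM with DMSO and 314, 275 and 375 CPM with OPH (log2 fold change -0.59 ± 0.13, adjusted p = 0.0108), with adjusted p = 0.0544 without OPH culture 1. Its partners Sox5 and Sox6 had adjusted p = 0.102 and 0.466, and Sox5 passed with the block (adjusted p = 0.0195), with no filter on low counts (0.0431) and without OPH culture 3 (0.0392). Bmp4, a bone morphogenetic protein of limb mesenchyme, was at 299, 301 and 330.2 CPM with DMSO and 201, 221 and 231 CPM with OPH (log2 fold change -0.51 ± 0.08, adjusted p = 7.6e-04). Tgfb2, a ligand that starts condensation, was at 223, 222 and 232 CPM with DMSO and 345, 339 and 371 CPM with OPH (log2 fold change 0.64 ± 0.08, adjusted p = 5.2e-05). Bmp4 and Tgfb2 thus moved in opposite directions, each with groups that did not overlap.

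Genes of cartilage hypertrophy and the hedgehog axis were called in few cases, 1 up and 1 down of 16 tested (12.5% called against 17.4% of all genes), or 4 up and 2 down with the block. The falling call was lost without any 1 of the 6 libraries, and the rising one without OPH culture 1 or 2. Col10a1, the collagen of hypertrophic cartilage, was at 15.9, 8.92 and 12.1 CPM with DMSO and 12.9, 5.25 and 10.7 CPM with OPH (adjusted p = 0.520), and Runx2, a factor of hypertrophy and bone, was at 15.9, 22.5 and 26.7 CPM with DMSO and 14.8, 15.5 and 29.3 CPM with OPH (adjusted p = 0.821). Spp1, osteopontin, was at 24.1, 19.3 and 25.8 CPM with DMSO and 34.6, 25.7 and 33.7 CPM with OPH (adjusted p = 0.0883, 0.0256 with the block). The groups overlapped in all 3. Ihh, the hedgehog ligand, was too low to test. Among 11 tested mineralization genes 1 rose and 3 fell (36.4% called against 17.4% of all genes), and 1 fell without OPH culture 1 or 2. The rising gene was Atf4, which is listed under the integrated stress response as well and described there. Fam20c, the kinase of secreted matrix proteins, was at 31.2, 31.2 and 31.2 CPM with DMSO and 21.2, 17.1 and 21.2 CPM with OPH (log2 fold change -0.65 ± 0.15, adjusted p = 0.00782). Mgp, the matrix protein that holds back calcification, was at 2493, 2651 and 3594 CPM with DMSO and 1811, 1781 and 1946 CPM with OPH (log2 fold change -0.66 ± 0.13, adjusted p = 0.0119), and the call was lost without OPH culture 1 or 2 (adjusted p = 0.0543 and 0.0670).

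Fibrous matrix and tendon genes fell in part. Of 31 tested interstitial collagen and fibroblast matrix genes, 13 fell and none rose (1 with the block), with 41.9% called against 17.4% of all genes. Col1a1, the main collagen of bone and skin, was at 11084, 11473 and 13625 CPM with DMSO and 8781, 9074 and 9052 CPM with OPH (log2 fold change -0.43 ± 0.07, adjusted p = 0.00133). Sparc, a collagen-binding protein, was at 8516, 7964 and 8736 CPM with DMSO and 6442, 6076 and 6261 CPM with OPH (log2 fold change -0.43 ± 0.06, adjusted p = 3.1e-04). Mfap2, a microfibril protein, was at 570.2, 688 and 726 CPM with DMSO and 396, 406 and 412 CPM with OPH (log2 fold change -0.71 ± 0.09, adjusted p = 8.2e-05). The groups did not overlap, though the changes were under 2-fold. Of 26 tested tendon, joint and perichondrium genes, 1 rose and 8 fell (34.6% called against 17.4% of all genes), or 2 and 14 with the block. The gene that rose in the main fit was Igfbp5, which is listed under insulin-like growth factors as well. Without DMSO culture 3, 2 rose. Tnmd, tenomodulin of tendon cells, was at 221, 253 and 256 CPM with DMSO and 78.3, 107 and 89.1 CPM with OPH (log2 fold change -1.41 ± 0.11, adjusted p = 1.4e-06). Col14a1, a fibril-associated collagen, was at 382, 415 and 390.1 CPM with DMSO and 219, 272 and 256 CPM with OPH (log2 fold change -0.67 ± 0.09, adjusted p = 1.3e-04). Scx, the tendon transcription factor, was at 82.1, 101 and 126 CPM with DMSO and 97.9, 119 and 122 CPM with OPH (adjusted p = 0.644). The groups overlapped for Scx. Sfrp2, a secreted Wnt modulator, was at 687, 543 and 566 CPM with DMSO and 291, 227 and 210.1 CPM with OPH (log2 fold change -1.30 ± 0.13, adjusted p = 1.6e-04).

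Of 30 tested proteases and inhibitors of matrix turnover, 1 rose and 6 fell (23.3% called against 17.4% of all genes). There were 2 rising without DMSO culture 3 or OPH culture 2 or with the block. Plau, the urokinase that activates plasmin, was at 22.5, 27.9 and 16.1 CPM with DMSO and 8.48, 9.34 and 5.99 CPM with OPH (log2 fold change -1.47 ± 0.25, adjusted p = 9.3e-04). Adam8, a membrane protease of myeloid cells, was at 22.2, 17.3 and 30.3 CPM with DMSO and 10.4, 8.17 and 5.67 CPM with OPH (log2 fold change -1.52 ± 0.26, adjusted p = 0.00122). Timp2, an inhibitor of metalloproteinases, was at 1299.7, 1301 and 1330.4 CPM with DMSO and 1054, 932 and 1054 CPM with OPH (log2 fold change -0.37 ± 0.07, adjusted p = 0.00270). In each the OPH libraries were all lower. The macrophage markers fell in the same libraries, and their part in the falls of Adam8 and Mmp9 was not tested. Mmp9, the gelatinase of osteoclasts and macrophages, was at 128, 60.3 and 224 CPM with DMSO and 8.04, 9.19 and 5.83 CPM with OPH (log2 fold change -4.15 ± 0.66, adjusted p = 0.0216). Its call was lost with the block (adjusted p = 0.0534), with cultures 1 and 2 alone (0.0555) and without DMSO culture 1 (0.0706) or OPH culture 1, 2 or 3 (0.0895, 0.0909 and 0.0907).

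Among the caspases themselves, the targets of OPH, 2 of 9 tested genes rose and 1 fell (33.3% called against 17.4% of all genes). Such transcript levels do not report enzyme activity. Casp8, the initiator of death receptors, was at 29.8, 32.5 and 37.3 CPM with DMSO and 34.3, 43.1 and 33.9 CPM with OPH (log2 fold change 0.16 ± 0.14, adjusted p = 0.518, 95% interval -0.15 to 0.47). Casp9, the initiator of the mitochondrial pathway, was at 22.00, 13.5 and 23.4 CPM with DMSO and 18.6, 15.6 and 15.2 CPM with OPH (log2 fold change -0.26 ± 0.21, adjusted p = 0.481, 95% interval -0.72 to 0.20). The groups overlapped for these caspases. Casp4, an inflammatory caspase that is induced by interferon, was at 2.55, 4.79 and 2.39 CPM with DMSO and 17.5, 16.8 and 10.9 CPM with OPH (log2 fold change 2.22 ± 0.32, adjusted p = 3.1e-04). Casp1, the inflammasome caspase of myeloid cells, was at 7.17, 9.91 and 9.54 CPM with DMSO and 1.17, 2.04 and 2.92 CPM with OPH (log2 fold change -2.12 ± 0.39, adjusted p = 0.00176). Casp12, a caspase tied to the endoplasmic reticulum, was at 40.2, 52.03 and 56.05 CPM with DMSO and 69.9, 66.99 and 72.9 CPM with OPH (log2 fold change 0.50 ± 0.13, adjusted p = 0.0144), and its adjusted p was 0.0615 without DMSO culture 1, 0.0504 without OPH culture 3 and 0.0650 in a fit over all 9 libraries. Macrophage markers fell alongside Casp1, and their part in its fall was not tested.

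Of 31 tested apoptosis regulators, 6 rose and 3 fell. Those that rose included some pro-death members of the BCL2 family, while other such members were among the 22 regulators not called. Bbc3, the BH3-only protein PUMA, was at 43.8, 43.9 and 36.8 CPM with DMSO and 121, 121 and 102 CPM with OPH (log2 fold change 1.47 ± 0.11, adjusted p = 6.8e-07). Bcl2l11, the BH3-only protein BIM, was at 39.5, 39.5 and 34.6 CPM with DMSO and 62.1, 76.2 and 73.1 CPM with OPH (log2 fold change 0.90 ± 0.12, adjusted p = 1.4e-04). Bid, which caspase 8 cuts, was at 12.9, 14.7 and 10.6 CPM with DMSO and 29.8, 26.4 and 24.1 CPM with OPH (log2 fold change 1.08 ± 0.18, adjusted p = 9.9e-04). Their groups did not overlap. Bax, the pore-forming effector, was at 37.8, 49.6 and 46.8 CPM with DMSO and 64.3, 68.6 and 66.9 CPM with OPH (log2 fold change 0.57 ± 0.12, adjusted p = 0.00460). Bcl2, the survival protein, was at 13.1, 14.4 and 11.8 CPM with DMSO and 6.14, 11.7 and 11.7 CPM with OPH (adjusted p = 0.333).

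Of 14 tested necroptosis and pyroptosis genes, 3 rose and 1 fell (28.6% called against 17.4% of all genes). None fell without DMSO culture 1 or 2, and 2 fell without DMSO culture 3 or OPH culture 3, or with the block. Mlkl, the pore-forming protein of necroptosis, was at 3.83, 3.14 and 2.53 CPM with DMSO and 21.8, 27.9 and 16.5 CPM with OPH (log2 fold change 2.80 ± 0.27, adjusted p = 7.0e-06). Ripk3, the kinase that acts on MLKL, was at 20.9, 18.5 and 20.6 CPM with DMSO and 20.8, 16.5 and 18.3 CPM with OPH (adjusted p = 0.735). Mlkl separated the groups, whereas those of Ripk3 overlapped. Gsdmd, the pore-forming protein of pyroptosis, was at 4.30, 7.43 and 4.32 CPM with DMSO and 13.6, 9.34 and 11.99 CPM with OPH (log2 fold change 1.12 ± 0.30, adjusted p = 0.0182), and its adjusted p was 0.0700, 0.0552, 0.0833 and 0.0507 without DMSO culture 1, DMSO culture 3, OPH culture 1 and OPH culture 3. With cultures 1 and 2 alone it was 0.0852.

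Targets of p53, the factor that answers DNA damage and other stress, rose. Of 28 tested, 16 rose and 2 fell (64.3% called against 17.4% of all genes), with a median log2 fold change of 0.62. Cdkn1a, the cell cycle inhibitor p21, was at 119.5, 115 and 160.4 CPM with DMSO and 302, 293 and 364 CPM with OPH (log2 fold change 1.28 ± 0.14, adjusted p = 1.4e-04). Mdm2, which marks p53 for degradation, was at 81.1, 83.1 and 90.6 CPM with DMSO and 149, 157 and 154 CPM with OPH (log2 fold change 0.85 ± 0.09, adjusted p = 1.2e-05). Trp53inp1, a p53-induced nuclear protein, was at 33.2, 46.1 and 42.04 CPM with DMSO and 102, 133 and 118 CPM with OPH (log2 fold change 1.54 ± 0.13, adjusted p = 3.5e-06). The OPH libraries were all higher in each of them. Gdf15, a secreted stress hormone listed under p53 and the integrated stress response alike, was at 15.3, 12.9 and 15.7 CPM with DMSO and 80.5, 112 and 69.8 CPM with OPH (log2 fold change 2.58 ± 0.18, adjusted p = 1.2e-06).

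The integrated stress response slows translation and raises the factor ATF4 when amino acids run short or proteins misfold. Of 47 tested of its genes and genes of amino acid supply, 23 rose and 1 fell (2 without OPH culture 3 or with the block), with a median log2 fold change of 0.33. The share called was 51.1%, against 17.4% of all genes. Ddit3, the factor CHOP, was at 159, 159 and 149 CPM with DMSO and 352, 404 and 388 CPM with OPH (log2 fold change 1.29 ± 0.08, adjusted p = 9.3e-08). Trib3, a pseudokinase induced by CHOP, was at 121, 113 and 106 CPM with DMSO and 236, 261 and 246 CPM with OPH (log2 fold change 1.13 ± 0.09, adjusted p = 6.0e-07). Atf3, a stress-induced factor of the same family, was at 7.17, 12.1 and 6.26 CPM with DMSO and 67.8, 70.1 and 59.1 CPM with OPH (log2 fold change 2.96 ± 0.20, adjusted p = 6.0e-07). These 3 separated the groups without overlap. Atf4 itself was at 732, 679.6 and 765 CPM with DMSO and 959, 1014 and 1025 CPM with OPH (log2 fold change 0.46 ± 0.07, adjusted p = 5.7e-04). The other 23 of the 47 genes were not called, so the list did not rise as a whole. Among them Asns, asparagine synthetase, was at 154, 142 and 173 CPM with DMSO and 169, 168 and 192 CPM with OPH (adjusted p = 0.257).

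The ATF4-CHOP letters TGATGNAA, on either strand, were found in 2.71% of all promoters and in 16 of 39 of this list, while the hypoxia-response letters ACGTG stood in 17 of the 39 and in 29.3% of all promoters. They stood in the promoter of Atf3 at chr1:191183416-191183463 (minus strand) and of Nupr1 at chr7:126625553-126625600 (minus strand), shown with the match, which lies on the other strand, in capitals. Nupr1, a small stress-induced nuclear protein, was at 115, 105 and 107 CPM with DMSO and 138, 140.3 and 132 CPM with OPH (log2 fold change 0.33 ± 0.09, adjusted p = 0.0180), with adjusted p = 0.0703 without DMSO culture 2 and 0.0575 and 0.0713 without OPH culture 1 and 2.
Atf3: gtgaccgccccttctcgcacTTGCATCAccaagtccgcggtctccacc
Nupr1: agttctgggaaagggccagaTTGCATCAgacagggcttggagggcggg

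Chaperones of the endoplasmic reticulum belong to the other arms of the unfolded protein response and fold procollagen. Those that were called went the other way from Ddit3, Trib3, Atf3 and Atf4. Of 28 tested, 15 fell and none rose (53.6% called against 17.4% of all genes), with a median log2 fold change of -0.30, and 9 fell without DMSO culture 1. Sdf2l1, a partner of the chaperone BiP, was at 37.3, 38.3 and 38.9 CPM with DMSO and 16.5, 16.2 and 17.3 CPM with OPH (log2 fold change -1.19 ± 0.14, adjusted p = 3.7e-05). Manf, a secreted protein of endoplasmic reticulum stress, was at 294, 274 and 319 CPM with DMSO and 189.5, 201 and 212 CPM with OPH (log2 fold change -0.56 ± 0.08, adjusted p = 4.3e-04). P4hb, the disulfide isomerase that is also a subunit of prolyl hydroxylase, was at 1139, 1009 and 1088 CPM with DMSO and 819.5, 715 and 758 CPM with OPH (log2 fold change -0.50 ± 0.08, adjusted p = 5.0e-04). All were lower in every OPH library. Calr, the lectin chaperone calreticulin, was at 1437, 1473 and 1342 CPM with DMSO and 1087, 1007 and 1006 CPM with OPH (log2 fold change -0.46 ± 0.07, adjusted p = 4.9e-04).

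Of 35 tested genes of the oxidant-sensing factor NRF2 and glutathione, 11 rose and 1 fell (2 without DMSO culture 3 or with the block). This is 34.3% called against 17.4% of all genes, with 7 rising without DMSO culture 1 or DMSO culture 2 and 5 without OPH culture 1 or OPH culture 2. Srxn1, sulfiredoxin, was at 50.5, 39.3 and 43.5 CPM with DMSO and 109, 109 and 109 CPM with OPH (log2 fold change 1.29 ± 0.11, adjusted p = 1.7e-06). Hmox1, heme oxygenase 1, was at 63.6, 58.1 and 58.1 CPM with DMSO and 144, 127 and 119 CPM with OPH (log2 fold change 1.12 ± 0.10, adjusted p = 3.4e-06). Gclc, the catalytic subunit of the first step in glutathione synthesis, was at 22.95, 24.6 and 24.3 CPM with DMSO and 42.4, 36.6 and 47.96 CPM with OPH (log2 fold change 0.82 ± 0.14, adjusted p = 0.00102). All 3 were higher in every OPH library. Nqo1, a classical NRF2 target, was at 9.25, 10.9 and 9.54 CPM with DMSO and 15.3, 13.1 and 12.2 CPM with OPH (adjusted p = 0.181). Gpx1, a glutathione peroxidase, was at 366, 342 and 451 CPM with DMSO and 256, 269 and 278 CPM with OPH (log2 fold change -0.53 ± 0.10, adjusted p = 0.00198), lower in every OPH library.

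Of 28 tested genes of the EGF receptor and the immediate early response, 7 rose and 1 fell (28.6% called against 17.4% of all genes). There were 4 rising without OPH culture 1, and none falling without DMSO culture 1, DMSO culture 3, OPH culture 1 or OPH culture 2. Jun, an AP-1 subunit, was at 80.3, 76.3 and 87.1 CPM with DMSO and 165, 149 and 159 CPM with OPH (log2 fold change 0.96 ± 0.09, adjusted p = 5.6e-06). Myc, a growth regulator, was at 14.8, 9.42 and 12.4 CPM with DMSO and 30.5, 31.7 and 28.03 CPM with OPH (log2 fold change 1.30 ± 0.18, adjusted p = 2.4e-04). Fos, the partner of Jun, was at 14.03, 21.3 and 30.7 CPM with DMSO and 16.1, 12.1 and 26.4 CPM with OPH (adjusted p = 0.689), with overlapping groups.

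Growth-factor pathways moved in both directions. Of 32 tested genes of BMP and TGF-beta signalling, 6 rose and 3 fell (28.1% called against 17.4% of all genes). With the block 8 fell. No gene fell without DMSO culture 1, and 1 fell without OPH culture 1. Tgif1, a repressor of TGF-beta targets, was at 41.8, 42.9 and 35.3 CPM with DMSO and 73.1, 92.8 and 102 CPM with OPH (log2 fold change 1.16 ± 0.13, adjusted p = 3.9e-05). Pmepa1, a TGF-beta-induced feedback inhibitor, was at 354, 438 and 422 CPM with DMSO and 565, 554 and 701 CPM with OPH (log2 fold change 0.58 ± 0.11, adjusted p = 0.00266). Id1, an early BMP target, was at 202, 175 and 166 CPM with DMSO and 153, 155 and 145 CPM with OPH (adjusted p = 0.0638, 0.0230 with the block). Of 22 tested Wnt genes, 2 rose and 4 fell (27.3% called against 17.4% of all genes), and 9 fell with the block. Nkd1, a feedback inhibitor of Wnt, was at 46.1, 47.1 and 53.96 CPM with DMSO and 26.3, 24.5 and 37.4 CPM with OPH (log2 fold change -0.74 ± 0.16, adjusted p = 0.00524).

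In the insulin-like growth factor axis, 5 of 18 tested genes rose and 4 fell (50.0% called against 17.4% of all genes), and 7 fell with the block. Without DMSO culture 1 both counts were 2, without OPH culture 2 the test called 3 up, and without DMSO culture 3 it called 2 down. Igfbp5, a binding protein made by mesenchyme, was at 1278, 1182 and 1363 CPM with DMSO and 2026, 1965 and 2133 CPM with OPH (log2 fold change 0.68 ± 0.07, adjusted p = 1.8e-05). Igfbp4 was at 3557, 3497 and 3745 CPM with DMSO and 2742, 2703 and 2832 CPM with OPH (log2 fold change -0.38 ± 0.06, adjusted p = 8.1e-04). The ligand Igf1 was at 787, 713 and 1041 CPM with DMSO and 515, 351 and 513 CPM with OPH, lower in every OPH library (adjusted p = 0.0510, 1.1e-07 with the block).

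Limb patterning genes that were called rose, 7 of 28 tested, but without DMSO culture 1 it was 4, without OPH culture 2 it was 3, and without DMSO culture 2, OPH culture 1 or OPH culture 3 it was 2. None fell, or 1 with the block. Tbx3, a T-box factor of the limb margins, was at 14.5, 18.2 and 15.8 CPM with DMSO and 31.9, 24.4 and 29.6 CPM with OPH (log2 fold change 0.82 ± 0.17, adjusted p = 0.00396). Shox2, needed for the proximal limb skeleton, was at 69.8, 66.1 and 75.1 CPM with DMSO and 91.6, 91.4 and 93.6 CPM with OPH (log2 fold change 0.39 ± 0.10, adjusted p = 0.0115). Tbx5, the forelimb factor, was at 102, 104 and 105 CPM with DMSO and 117, 108 and 118 CPM with OPH (adjusted p = 0.331). Tbx5 was present in all 6 libraries.

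Of 34 tested glycolysis and hypoxia genes, 5 rose and 1 fell, which became none without DMSO culture 1 or OPH culture 3, 3 without DMSO culture 2, and 2 with the block. The share called was 17.6%, near the 17.4% of all genes tested. Slc2a1, the glucose transporter GLUT1, was at 72.8, 57.8 and 66.04 CPM with DMSO and 121, 109.9 and 98.3 CPM with OPH (log2 fold change 0.74 ± 0.11, adjusted p = 4.2e-04), and Ldha, lactate dehydrogenase, was at 701, 584 and 721 CPM with DMSO and 643, 643 and 541 CPM with OPH (adjusted p = 0.390). Of 28 tested genes of cholesterol synthesis and uptake, 5 rose and none fell, or 10 and 1 with the block, while 3 rose without DMSO culture 2 or OPH culture 1. Here too the share called, 17.9%, was near that of all genes. Srebf2, the factor that controls the pathway, was at 65.03, 56.3 and 61.4 CPM with DMSO and 88.4, 81.1 and 107 CPM with OPH (log2 fold change 0.60 ± 0.12, adjusted p = 0.00300). The changes of Slc2a1 and Srebf2 were under 2-fold.

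Respiratory genes that were called fell by small amounts. Of 46 tested nuclear genes of the respiratory chain, 14 fell and none rose, with a median log2 fold change of -0.20. The share called was 30.4%, against 17.4% of all genes, and 21 fell with the block. Without DMSO culture 1, DMSO culture 2, OPH culture 1 or OPH culture 3 the falling genes were 5, 7, 6 and 4. Cox6b1, a subunit of cytochrome oxidase, was at 377, 349 and 329 CPM with DMSO and 262, 275 and 220.2 CPM with OPH (log2 fold change -0.48 ± 0.09, adjusted p = 0.00297). Among 7 tested mitochondrially encoded genes 3 fell (42.9% called against 17.4% of all genes), or 5 with the block and 1 without DMSO culture 3. One of them, mt-Nd2, a subunit of complex I, was at 2549.7, 2144 and 2561 CPM with DMSO and 1782, 1520.0 and 1647 CPM with OPH (log2 fold change -0.55 ± 0.08, adjusted p = 4.5e-04). Mitochondrial transcripts made up 2.25 to 2.90% of counts with DMSO and 1.65 to 2.11% with OPH. Of 28 cytosolic ribosomal protein genes tested none was called by edgeR and 3 had an unadjusted p below 0.05 (2 fell with the block), with a median log2 fold change of -0.05.

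Of 45 tested genes of replication and mitosis, 11 fell and none rose, with a median log2 fold change of -0.25. The share called was 24.4%, against 17.4% of all genes. The falling genes numbered 3, 6, 3 and 5 without DMSO culture 1, DMSO culture 3, OPH culture 2 and OPH culture 3. Mcm4, a subunit of the replicative helicase, was at 73.6, 63.1 and 75.6 CPM with DMSO and 41.9, 47.3 and 51.5 CPM with OPH (log2 fold change -0.59 ± 0.12, adjusted p = 0.00334). Birc5, survivin, which acts in mitosis and blocks apoptosis, was at 79.2, 73.3 and 81.7 CPM with DMSO and 56.4, 56.3 and 60.8 CPM with OPH (log2 fold change -0.43 ± 0.10, adjusted p = 0.00880). Top2a and Mki67, markers of dividing cells, were not called (adjusted p = 0.653 and 0.481).

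Fat and muscle genes differed between the culture numbers. The summed level of 28 white adipocyte genes was 4315, 3866 and 905 CPM with DMSO and 4163, 5241 and 1396 CPM with OPH, so both cultures numbered 3 were low. For 39 skeletal muscle genes it was 396, 586 and 1488 CPM and 445, 560.0 and 1282 CPM, with both cultures numbered 3 high. Of 26 tested adipocyte genes 1 rose and none fell (3.85% called against 17.4% of all genes), or 8 and 2 with the block. The gene that rose in the main fit was not called without DMSO culture 1, OPH culture 1 or OPH culture 2, while 2 rose without OPH culture 3 and 1 fell without DMSO culture 3. Of 32 tested muscle genes none was called, or 3 up and 4 down with the block, 1 up without DMSO culture 3 and 1 down without OPH culture 3. At an unadjusted p below 0.05, 1 of the muscle genes passed with edgeR, and DESeq2 called 1 of them after adjustment.

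Adipoq was at 216, 189 and 21.3 CPM with DMSO and 181, 220.4 and 40.8 CPM with OPH (adjusted p = 0.985). Pparg, the master factor of fat cells, was at 38.6, 34.03 and 8.20 CPM with DMSO and 36.4, 36.5 and 15.4 CPM with OPH (adjusted p = 0.934). Acta1 was at 52.9, 65.9 and 171 CPM with DMSO and 44.1, 52.2 and 140.0 CPM with OPH (adjusted p = 0.856, 0.0237 with the block). For each of them the spread within a group exceeded the difference between the group means. Ppargc1a, a coactivator of mitochondrial and thermogenic genes, was the gene called among 7 tested of the brown fat list (14.3% called against 17.4% of all genes), where the block called 4. It was at 6.38, 5.45 and 3.88 CPM with DMSO and 35.2, 33.6 and 24.8 CPM with OPH (log2 fold change 2.58 ± 0.23, adjusted p = 2.5e-06), higher in every OPH library.

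**Figure D4:**
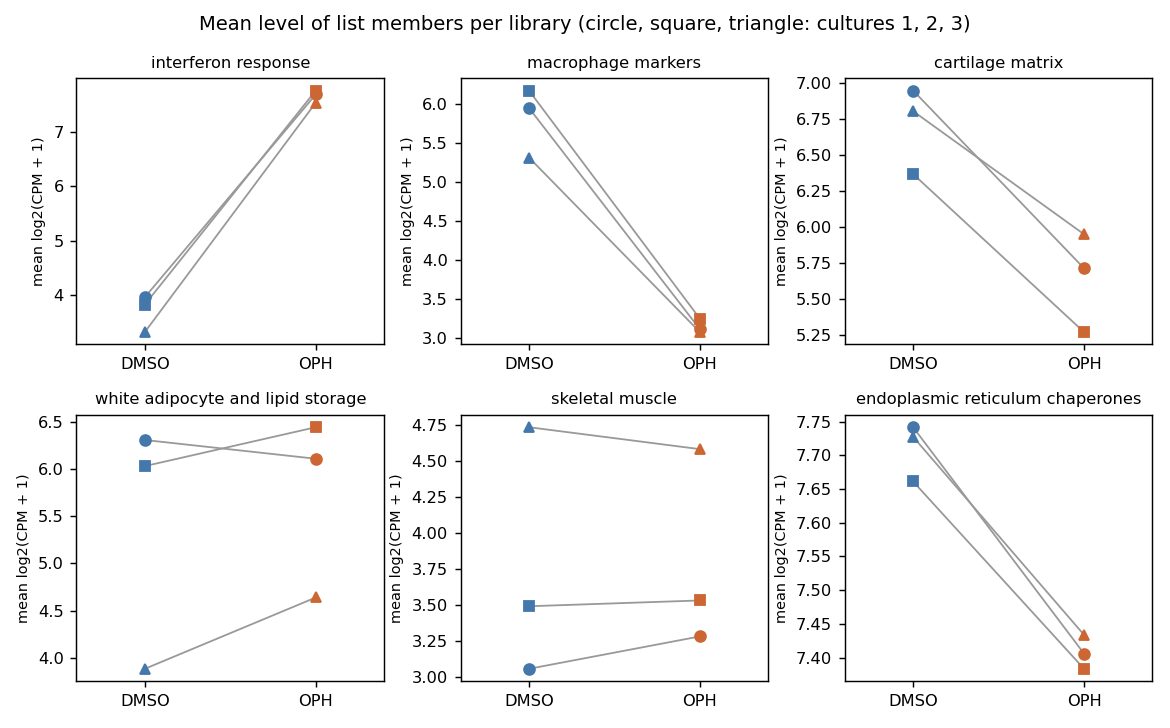
Each panel plots the mean log2(CPM + 1) over the members of 1 list in each library, with grey lines joining the DMSO and OPH cultures of the same number. All 3 lines rise for interferon response genes and fall for macrophage markers, cartilage matrix and endoplasmic reticulum chaperones, while the number 3 cultures sit apart for adipocyte and muscle genes.

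Smooth muscle genes were called in 4 of 19 tested cases, 1 up and 3 down (21.1% called against 17.4% of all genes), or 2 up and 9 down with the block. The falling genes numbered 1, 1 and 6 without OPH culture 1, 2 and 3, and none rose without DMSO culture 1 or OPH culture 2 or 3. Smtn, smoothelin, was at 88.6, 94.7 and 106 CPM with DMSO and 57.1, 51.8 and 75.98 CPM with OPH (log2 fold change -0.65 ± 0.14, adjusted p = 0.00559). Acta2, the smooth muscle actin of myofibroblasts, was at 1189, 1334 and 1853 CPM with DMSO and 774, 746 and 1219 CPM with OPH (adjusted p = 0.217, 5.3e-07 with the block). Other cell types were sparse. Of 19 endothelial markers 8 could be tested and none was called by edgeR, with 1 at an unadjusted p below 0.05 and 1 lower by DESeq2 and with the block, of 14 ectoderm markers 5 could be tested and none was called, and of 20 blood markers 1 could be tested and was not called. The defining endothelial gene Cdh5 summed to 0 counts in the DMSO group and 2 in the OPH group. Among glial and melanocyte markers, S100b, a calcium-binding protein that cartilage also makes, was at 30.4, 21.6 and 13.3 CPM with DMSO and 9.21, 5.25 and 8.91 CPM with OPH (log2 fold change -1.48 ± 0.32, adjusted p = 0.00841), and Sox10, which defines glia, summed to 0 and 0 counts.

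Several of the genes with the farthest changes or, as for Dab2 and Cotl1, the smallest p-values belonged to none of these lists. Pax5, a B-cell factor, had no count with DMSO and was at 2.48, 3.79 and 2.92 CPM with OPH, at least 19.4-fold higher against the floor of 3 counts (adjusted p = 7.5e-04). Pax5 passed the filter on low counts only through the OPH libraries. Ecel1, a neuronal membrane peptidase, was at 0, 0.165 and 0.149 CPM with DMSO and 18.9, 11.7 and 14.9 CPM with OPH, and its group totals of 2 and 301 counts give a ratio of OPH to DMSO of 144 (95% counting interval 39.6 to 1196). Ecel1 too passed that filter only through the OPH libraries. Plac8, a small cysteine-rich protein found in many leukocytes, was at 0.797, 2.31 and 1.49 CPM with DMSO and 175, 201 and 149 CPM with OPH (log2 fold change 6.83 ± 0.23, adjusted p = 2.7e-09). Genes with the farthest changes were picked only where the groups did not overlap, so these 3 were higher in every OPH library by selection. Calb2, the calcium-binding protein calretinin, was at 3.19, 3.63 and 1.64 CPM with DMSO and 0, 0.146 and 0 CPM with OPH, and its group totals of 53 and 1 counts give a ratio of DMSO to OPH of 55.3 (95% counting interval 9.51 to 2226) (adjusted p = 0.00140). Folr2, a folate receptor of resident macrophages, was at 8.93, 4.13 and 2.68 CPM with DMSO and 0, 0.146 and 0.324 CPM with OPH, and its group totals of 99 and 3 counts give a ratio of DMSO to OPH of 34.4 (95% counting interval 11.4 to 169.9). Both came close to 0 with OPH and passed the filter on low counts only through the DMSO libraries. Dab2, an endocytic adaptor, was at 450.3, 436 and 351 CPM with DMSO and 158, 134 and 144 CPM with OPH (log2 fold change -1.50 ± 0.10, adjusted p = 2.8e-07). Cotl1, an actin-binding protein, was at 169, 178 and 137 CPM with DMSO and 55.5, 57.2 and 50.2 CPM with OPH (log2 fold change -1.57 ± 0.11, adjusted p = 3.0e-07). Dab2 and Cotl1 were lower in every OPH library, and Calb2 and Folr2 were so by the same selection. Macrophage markers fell in the same libraries, and their part in these falls was not tested.

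In the authors' deposited table, 1070 genes were higher and 1080 lower with OPH at an adjusted p below 0.05. Of these, 2007 were also called here, which is 89.1% of the genes called here and 93.3% of the authors'. The authors' fit is DESeq2, per the submitters' processing notes.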

How the data were processed

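Raw counts for each gene were deposited per library. Per the file headers, the same deposited table gives for each comparison the authors' log2 fold change, Wald score and p-value. Per the submitters' processing notes, cutadapt, STAR and DESeq2 were run with mm10. No source used here names the counting program. The table listed 52550 genes, and 99 rows that name no gene (1 count) were left out. Totals were 6053665 to 6867350 counts per library.

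Counts of the 6 libraries were filtered (filterByExpr), scaled by TMM and tested with edgeR 4.0.16 in R 4.3.3 (glmQLFit, robust; glmQLFTest, two-sided; Benjamini-Hochberg over 12916 genes; threshold 0.05), after being tested on simulated data. The standard error is the absolute log2 fold change over the square root of F. CPM uses TMM-scaled totals. A gene almost without counts in a group passed the filter only through the other group. The floor for a group without counts is 3 counts, and counting intervals are exact at 95%; both cover counting error only. An exact permutation test of 3 against 3 cannot go below p = 0.1, so single genes were read from the fit. DESeq2 1.42.0 and limma 3.58.1 were alternatives.

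Same-numbered libraries of the groups deviated together from their group means (correlations 0.280, 0.174 and 0.367 over 12916 genes). The numbers were therefore taken to pair the samples in an alternative fit with the replicate block. The main counts and p-values come from the fit without it, because the labels name no block. Spread shared by a culture number thus stays in the error of the main fit. The block fit is given where it changes a named gene's call or moves a count by over 1.5 times. Positions are from GENCODE M21 (GRCm38), in which 99.7% of the genes were found, and promoters from RefSeq (GRCm38.p6).

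The comparison, the 41 gene lists and the tests were chosen with earlier results of these data known. The lists hold 1147 entries for 1109 distinct genes, so some calls are counted in more than 1 list. Genes named were the 12 rising and 12 falling with the largest change (mean of at least 1 CPM, groups apart), the 6 each way with the smallest p, the 4 of each list with the smallest p and key genes marked in the lists; B2m, Tnfaip3, Nupr1, Hapln1, Cxcl1, Ifih1 and Zbp1 were added after their values were seen. The other inhibitor group of the series was used in 1 alternative only. Some single genes are not reported here.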

Additional observations from a re-analysis of the deposited data

How the results depend on the processing

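Both counts of genes stayed within 1.5 times their main value (1138 up and 1114 down) under DESeq2's size factors in edgeR (1148 up and 1091 down), library totals (1161 up and 1078 down), DESeq2 (1037 up and 1025 down), limma-voom (1046 up and 1046 down), no filter on low counts (1360 up and 1290 down), a stricter filter (1173 up and 1160 down), all 9 libraries in 1 fit (1141 up and 1075 down), the replicate block (1558 up and 1559 down) and cultures 1 and 2 alone (943 up and 960 down). Leaving out 1 library at a time gave 728 to 996 up, 724 to 966 down and 1452 to 1962 in all, with fewer samples in the fit; the count moved by over 1.5 times without OPH culture 2. Every gene called in both the main fit and DESeq2, the block or a fit without 1 library kept its direction. Beyond the values given beside the results, the block changed the call of no named gene and moved no list count by over 1.5 times. Of 160 single genes named, 132 kept direction and call under every alternative. Uncalled genes changed sign when 1 library was left out, and the cause was not tested: the log2 fold changes ran over Acta1 -1.002 to 0.40, Adamts4 -0.21 to 0.000147, Adipoq -0.46 to 0.50 (-0.0142 with cultures 1 and 2 alone), Fos -0.64 to 0.0371, Pparg -0.30 to 0.49, Runx2 -0.52 to 0.0419 and Scx -0.0117 to 0.30. Of 32 list counts of 1 to 4 calls, 23 moved by over 1.5 times without at least 1 library. Among genes split by level into 3 equal groups, 9.78% of the lowest and 27.3% of the highest were called; the part of depth in this was not tested.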
